A study of Mus musculus with 12 samples.

Results

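The livers of 3 female mice lacking the ubiquitin ligase SIAH2 (Siah2 KO) were compared with those of 3 wild type females, as 6 of the 12 liver libraries of the series. The 6 libraries were chosen by the labels of their columns in the female count table, and no measured value entered the choice. The other 6 libraries, from 3 wild type and 3 KO males, served for reference. They also entered the scaling of levels and a test of whether changes differed between the sexes. All mice were on a C57BL/6 background, were about 20 weeks old, had free access to normal chow and were kept in 12 h of light and 12 h of dark. Livers were taken at ZT10, that is 10 h after lights on and close to the daytime peak of the clock repressor REVERBα. Siah2 was deleted in the whole body, so a change in the liver need not arise in the liver. Wild type and KO mice came from related lines that were each bred from homozygotes, and were not littermates, so genotype and line cannot be told apart. The labels state that RNA was pooled from 3 mice per library, whereas the study's methods describe individual livers at ZT10, and the libraries are treated here as individual mice. Either way, p-values measure the spread between these 3 and 3 libraries at a single time of day. Without wild type 1091 they rest on 2 wild type and 3 KO libraries. Unlike the choice of the 6 libraries, leaving out 1091 was decided from the measured values. The wild type females are called by their label numbers 1089, 1090 and 1091, and the KO females are always given in the order 1070, 1104 and 1105.

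SIAH2 belongs to the RING family of E3 ubiquitin ligases, enzymes of the kind that attaches ubiquitin to a protein and so marks it for the proteasome. Among its known targets are members of the EGLN family of prolyl hydroxylases and the nuclear receptor REVERBα, which represses clock genes during the day. The EGLN enzymes mark the hypoxia-inducible factors for breakdown when oxygen is plentiful. In the liver the clock drives daily rhythms of bile acid, cholesterol, fatty acid and glucose metabolism, and many liver genes also differ between the sexes under the control of pulsatile growth hormone.

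RNA was measured with QuantSeq, which reads a single fragment close to the 3′ end of each polyadenylated transcript, so a count stands for a transcript whatever its length. Total counts ranged from 1671189 to 3690283 in the 6 female libraries. The unprocessed ribosomal transcript Rn45s took from 5.68% to 14.9% of them. Levels are given as CPM, counts scaled to a common library size with TMM factors over all 12 libraries. Wild type 1091 stood apart from every other library. In 351 genes it lay more than 2-fold below all 11 others, and in 39 it lay more than 2-fold above them, whereas the other libraries lay below in 1 to 45 genes and above in 0 to 7. Its rank correlation with the other libraries over 10165 genes was 0.871 to 0.908, as a description over libraries of 1 tissue. The genes lowest in 1091 against the other wild types included Sdhd, a subunit of the respiratory enzyme succinate dehydrogenase, with 123 and 86.3 CPM in 1089 and 1090, 2.04 in 1091, and 125, 158 and 234 in the KO mice. Nrn1, encoding the small membrane protein neuritin, stood at 747 and 621 CPM in 1089 and 1090, 40.5 in 1091, and 1005, 922 and 1269 in the KO mice. Among the genes highest in 1091, Il1rn, which encodes the antagonist of the interleukin 1 receptor, had 21.8 and 22.9 CPM in 1089 and 1090, 145 in 1091, and 36.0, 38.5 and 24.8 in the KO mice. For these 3 genes 1091 lay outside all other females, and the difference between the other wild types and the KO mice was not called. Plekhg3, in contrast, had 48.2 and 43.5 CPM in 1089 and 1090, 267 in 1091, and 139.7, 127 and 145 in the KO mice, so that 1091 lay beyond the KO mice. Values with and without 1091 are therefore given side by side for most of the genes described.

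**Figure D1:**
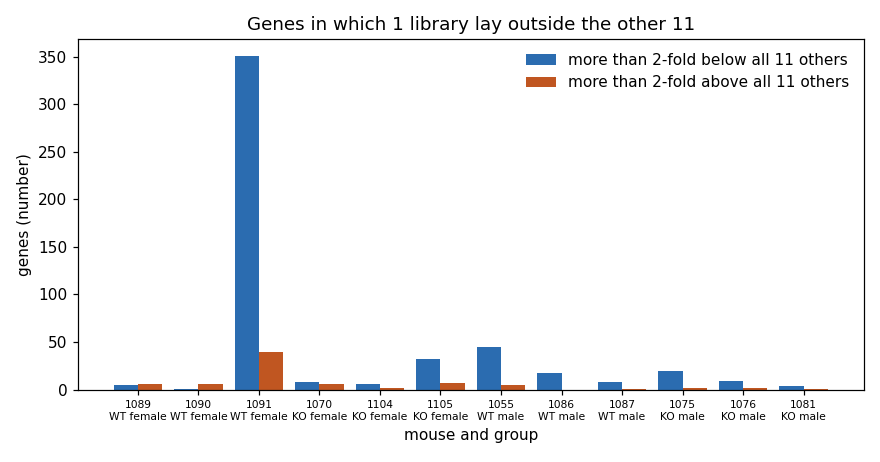
Number of genes (vertical axis) in which each of the 12 libraries (horizontal axis, mouse number and group) lay more than 2-fold below (blue) or above (orange) all 11 others, on log2 CPM. Wild type female 1091 has 351 and 39 such genes, against at most 45 and 7 in any other library.

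Siah2 itself (chr3:58674949-58692439, in GRCm38.p6 like all positions given) was not called in either fit. It had 16.8 and 12.2 CPM in 1089 and 1090, 12.2 in 1091, and 10.1, 12.5 and 9.46 in the KO mice, and the groups overlapped. For Siah2 the log2 fold change was -0.43 ± 0.29 SE without 1091 (edgeR adjusted p = 0.382) and -0.34 ± 0.30 with it (edgeR adjusted p = 0.641). The deposited counts do not tell where in Siah2 the counted 3′ fragments lie relative to the deleted part, so this level does not check the genotype labels. The related ligase Siah1a was at 20.4 and 28.0 CPM in 1089 and 1090, 33.3 in 1091, and 38.2, 23.5 and 43.8 in the KO mice, also with overlapping groups. For Siah1a the log2 fold change was 0.51 ± 0.28 SE without 1091 (edgeR adjusted p = 0.282) and 0.38 ± 0.30 with it (edgeR adjusted p = 0.591). Siah1b, the other member of the family, stayed under 10 CPM in all 6 females. On chromosome 3, 49 tested genes lay within 10 Mb of Siah2, of which 2 were called higher and 3 lower without 1091, a share close to the 9.64% of all genes tested.

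With all 6 mice, edgeR (quasi-likelihood F test, p-values adjusted by Benjamini-Hochberg) called 0 of 9465 genes (0%) at the 0.05 threshold. The adjusted p went no lower than 0.0674, and the unadjusted p was under 0.05 in 1478 genes. DESeq2, the tool that the study used, called 303 of the 8185 genes it tested on the same 6 mice (3.7%), 176 higher and 127 lower in KO. The edgeR count also depended on the filter on low counts, since 484 genes were called when all genes with at least 1 count entered the fit. Without 1091, edgeR called 936 of 9709 genes (9.64%). Of these, 506 were higher in KO (5.21% of genes tested) and 430 lower (4.43%). The biological coefficient of variation, the estimated spread between mice of 1 group, was 0.286 with 1091 and 0.191 without it. The median log2 fold change over all genes tested was -0.01 without 1091, and the medians of the called genes were 0.98 for the rises and -1.07 for the falls. The called genes were more abundant than the rest, with a median over the 6 females of 79.8 CPM for the rises and 35.9 CPM for the falls against 20 CPM for all genes tested. In what follows, "rose" and "fell" refer to genes called by edgeR without 1091, and each gene's edgeR values are given first without 1091 and then with it. A DESeq2 adjusted p always refers to all 6 mice. Wild type 1091 was left out because its expression values stood apart, and the same values were then tested. The p-values without 1091 do not allow for that choice and may be too small. Calls that rest on leaving it out are therefore descriptive. The count without 1091 was itself sensitive to single mice. It was 398 without KO 1070, 350 without KO 1104, 303 without wild type 1089 and 300 without wild type 1090. In the fits without 1089 or 1090 a lone wild type remains, which is assumed to vary like the KO mice.

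Since 1091 took no part in the second fit, its place in the 936 genes is independent of how they were called. On the log2 scale from the mean of 1089 and 1090 (0) to the mean of the KO mice (1), 1091 lay nearer to its own genotype in 479 of the 936 genes (51.2%), with a median position of 0.49. It was nearer to the KO mice in 48.8% of them, against 50.4% of all 9709 genes tested, so the called genes did not stand out in this. When each of the other 5 mice was left out in the same way and the genes were called without it and without 1091, the mouse left out lay nearer its own genotype in 91.2% (1070), 94.6% (1104), 82.3% (1105), 78.9% (1089) and 76.3% (1090) of the genes. In some of the called genes 1091 sat with its genotype and in others with the KO mice, and the 2 kinds are told apart gene by gene below. Of the 914 called genes that the fit of all 6 mice also tested, 594 had 3 wild type mice that did not overlap the 3 KO mice (65.0%), against 23.3% of all 9465 genes. The 5 mice other than 1091 chose those genes, so only the place of 1091 is new in that count.

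The 6 male livers, also outside the fit, tended to lie by the KO females in the same genes. Their mean was nearer to the KO females than to 1089 and 1090 in 657 of the 936 genes (70.2%), against 57.5% of all 9709 genes tested. Taken singly the males were nearer to the KO females in 53.4% to 81.4% of the genes, and the wild type males (75.9% for their mean) were no further from the KO females than the KO males were (65.4%). Males and females were counted in separate tables, so sex and table cannot be told apart in this comparison, and its cause was not tested. Within the males, 46 of the 898 called genes that were also tested there (5.12%) had an unadjusted p under 0.05, against 4.05% of all genes tested in males, and 311 (34.6%) had an estimate of the same sign as in females, against 44.3% of all genes.

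**Figure D2:**
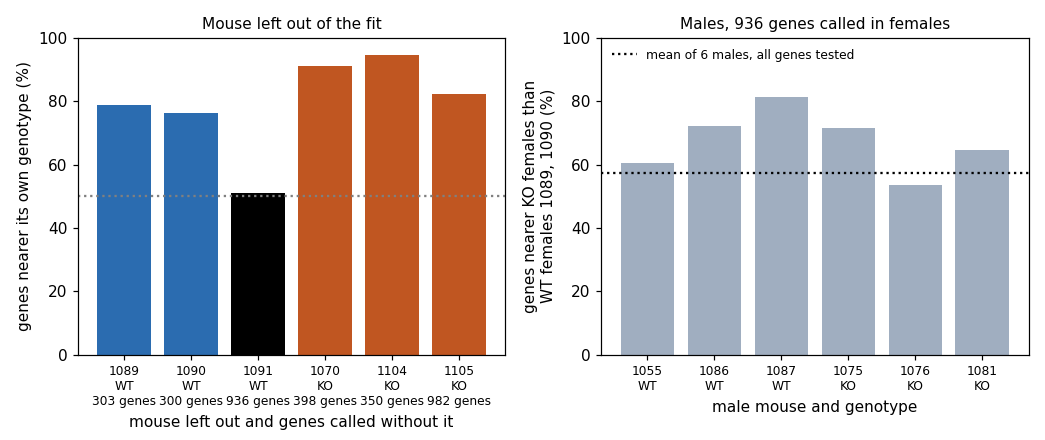
Left, percent of called genes in which a female left out of the fit lay nearer its own genotype (vertical axis), with the mouse, its genotype and the number of genes called without it on the horizontal axis. Right, percent of the 936 genes in which each male lay nearer to the KO females than to wild type females 1089 and 1090. The bar of 1091 stands at 51.2% while the other females stand between 76.3% and 94.6%, and the males stand between 53.4% and 81.4%, with 57.5% for their mean over all genes tested (dotted line).

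The genes with the smallest p over all 6 mice are described next. Ranking in this way favours genes in which 1091 sat with the other wild types. Its place in them follows from the choice and is not further evidence. Armc8 (chr9:99478385-99568907), which encodes a subunit of the CTLH ubiquitin ligase, was at 44.6 and 32.2 CPM in 1089 and 1090, 32.3 in 1091, and 119, 152 and 158 in the KO mice. All 3 KO mice lay above all 3 wild types (log2 fold change 1.99 ± 0.26 SE, edgeR adjusted p = 0.0674, DESeq2 adjusted p = 2.80e-08). Coq10b (chr1:55052770-55072702), which encodes a mitochondrial protein that binds coenzyme Q, was at 26.8 and 46.7 CPM in 1089 and 1090, 31.6 in 1091, and 135, 143 and 138 in the KO mice, again with no overlap (log2 fold change 1.99 ± 0.26 SE, edgeR adjusted p = 0.0674, DESeq2 adjusted p = 9.55e-08). Cyp8b1 (chr9:121914356-121916305), the sterol 12α-hydroxylase that steers bile acid synthesis toward cholic acid, was at 92.1 and 79.8 CPM in 1089 and 1090, 64.6 in 1091, and 21.6, 21.3 and 21.9 in the KO mice. Its KO values were all lower than every wild type and differed little among themselves (log2 fold change -1.86 ± 0.25 SE, edgeR adjusted p = 0.0674, DESeq2 adjusted p = 2.43e-06). Pgk1 (chrX:106187100-106203699), the glycolytic enzyme phosphoglycerate kinase, stood at 30.4 and 31.9 CPM in 1089 and 1090, 21.1 in 1091, and 101, 86.9 and 96.4 in the KO mice (log2 fold change 1.78 ± 0.26 SE, edgeR adjusted p = 0.0793, DESeq2 adjusted p = 2.43e-06). Per3 (chr4:150997018-151044707), a period gene of the clock, was at 11.1 and 5.36 CPM in 1089 and 1090, 6.12 in 1091, and 30, 46.9 and 33.7 in the KO mice (log2 fold change 2.31 ± 0.35 SE, edgeR adjusted p = 0.0793, DESeq2 adjusted p = 2.19e-05). For both genes the lowest KO mouse was above the highest wild type. None of these 5 genes passed the edgeR threshold with all 6 mice, whereas all 5 passed it without 1091, with adjusted p-values of 0.00214 for Armc8, 0.00232 for Coq10b, 0.00104 for Cyp8b1, 0.00214 for Pgk1 and 0.00527 for Per3 by edgeR.

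The other genes chosen in this way likewise had 1091 among or beside the wild types. Stt3a, the catalytic subunit of the oligosaccharyltransferase that adds N-glycans to new proteins in the endoplasmic reticulum (ER), had 112 and 115 CPM in 1089 and 1090, 96.5 in 1091, and 355, 277 and 269 in the KO mice. For Stt3a the log2 fold change was 1.39 ± 0.19 SE without 1091 (edgeR adjusted p = 0.00328) and 1.48 ± 0.23 with it (edgeR adjusted p = 0.0793). Psmd13, a subunit of the 19S cap of the proteasome, had 120.0 and 149 CPM in 1089 and 1090, 121 in 1091, and 54.6, 46.9 and 44.4 in the KO mice. For Psmd13 the log2 fold change was -1.47 ± 0.19 SE without 1091 (edgeR adjusted p = 0.00232) and -1.40 ± 0.23 with it (edgeR adjusted p = 0.0793). Stt3a rose and Psmd13 fell, with no overlap in either gene. Timp3, an inhibitor of metalloproteinases of the extracellular matrix, was at 44.6 and 51.2 CPM in 1089 and 1090, 44.2 in 1091, and 114, 111 and 117 in the KO mice. For Timp3 the log2 fold change was 1.24 ± 0.18 SE without 1091 (edgeR adjusted p = 0.00458) and 1.30 ± 0.21 with it (edgeR adjusted p = 0.0793). Prpf18, a splicing factor that acts at the second step, was at 57.1 and 58.1 CPM in 1089 and 1090, 44.5 in 1091, and 153, 122 and 169 in the KO mice. For Prpf18 the log2 fold change was 1.35 ± 0.20 SE without 1091 (edgeR adjusted p = 0.00475) and 1.48 ± 0.25 with it (edgeR adjusted p = 0.0793). In both rises the KO mice differed from one another by less than from any wild type. Gcnt2, a glycosyltransferase that branches sugar chains, rose from 66.8 and 61.0 CPM in 1089 and 1090 to 189, 145 and 141 in KO, with 1091 at 64.9. For Gcnt2 the log2 fold change was 1.30 ± 0.20 SE without 1091 (edgeR adjusted p = 0.00508) and 1.31 ± 0.22 with it (edgeR adjusted p = 0.0793). Isoc2a fell from 237 and 252 CPM in 1089 and 1090 to 85.2, 87.6 and 53.2 in KO, with 1091 at 191. For Isoc2a the log2 fold change was -1.69 ± 0.21 SE without 1091 (edgeR adjusted p = 0.00232) and -1.58 ± 0.26 with it (edgeR adjusted p = 0.0793). Adra2b, the α2B-adrenergic receptor, had the largest log2 fold change of the set without 1091, at 11.1 and 5.66 CPM in 1089 and 1090, 10.5 in 1091, and 66.3, 35.6 and 29.6 in the KO mice (log2 fold change 2.43 ± 0.40 SE and edgeR adjusted p = 0.00681 without 1091, 2.30 ± 0.38 and 0.0793 with it), although its KO mice spread more widely than those of the other genes.

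The largest rises were taken from genes called without 1091 that averaged 20 CPM or more and did not overlap over all 6 mice. Apart from Adra2b, Per3, Coq10b and Armc8, they were led by Slc41a3, a member of a magnesium transporter family, with 6.43 and 11.6 CPM in 1089 and 1090, 18.7 in 1091, and 59.5, 46.9 and 34.3 in the KO mice. For Slc41a3 the log2 fold change was 2.36 ± 0.31 SE without 1091 (edgeR adjusted p = 0.00298) and 1.97 ± 0.36 with it (edgeR adjusted p = 0.0793). Cxcl1, a chemokine that attracts neutrophils, had 13.2 and 4.76 CPM in 1089 and 1090, 8.84 in 1091, and 70.4, 36.3 and 17.2 in the KO mice (log2 fold change 2.27 ± 0.54 SE and edgeR adjusted p = 0.0266 without 1091, 2.25 ± 0.51 and 0.106 with it), and its lowest KO mouse came close to the highest wild type. Lonrf1, a RING finger protein with a LON domain, had 19.3 and 11.6 CPM in 1089 and 1090, 22.8 in 1091, and 48.3, 50.2 and 56.2 in the KO mice. For Lonrf1 the log2 fold change was 1.74 ± 0.25 SE without 1091 (edgeR adjusted p = 0.00422) and 1.55 ± 0.28 with it (edgeR adjusted p = 0.0793). In Cxcl1 the level of 1091 lay between those of the other wild types, and in Slc41a3 and Lonrf1 it lay above both of them but below all KO mice. Nmrk1, the nicotinamide riboside kinase of the NAD salvage pathway, had 22.5 and 11.6 CPM in 1089 and 1090, 34.7 in 1091, and 43.9, 69.7 and 53.8 in the KO mice (log2 fold change 1.71 ± 0.31 SE and edgeR adjusted p = 0.00896 without 1091, 1.32 ± 0.36 and 0.133 with it), so that 1091 lay nearer to the KO mice. In 4 rises 1091 lay below every other female, so its distance from the KO mice exceeds that of 1089 and 1090. Rcbtb1, a protein with RCC1 and BTB domains, had 104 and 112 CPM in 1089 and 1090, 40.5 in 1091, and 386, 342 and 442 in the KO mice. For Rcbtb1 the log2 fold change was 1.85 ± 0.19 SE without 1091 (edgeR adjusted p = 0.00136) and 2.19 ± 0.38 with it (edgeR adjusted p = 0.0793). Dusp11, a phosphatase that acts on RNA 5′ ends, had 24.3 and 19.4 CPM in 1089 and 1090, 7.82 in 1091, and 58.4, 82.1 and 103 in the KO mice. For Dusp11 the log2 fold change was 1.88 ± 0.27 SE without 1091 (edgeR adjusted p = 0.00429) and 2.24 ± 0.41 with it (edgeR adjusted p = 0.0793). Churc1, a zinc finger protein, was at 22.9 and 15.8 CPM in 1089 and 1090, 2.38 in 1091, and 77.2, 87.3 and 64.5 in the KO mice, and Bsdc1 was at 41.8 and 40.5 CPM in 1089 and 1090, 2.72 in 1091, and 111, 138 and 162 in the KO mice. With 1091 the estimate of Bsdc1 was larger but had a wider error, and neither edgeR nor DESeq2 called it with their usual filters, whereas edgeR without a filter and voom with quality weights did. For Bsdc1 the log2 fold change was 1.72 ± 0.22 SE without 1091 (edgeR adjusted p = 0.00232) and 2.26 ± 0.67 with it (edgeR adjusted p = 0.158, DESeq2 adjusted p = 0.199). Churc1 was called by DESeq2 as well. For Churc1 the log2 fold change was 1.99 ± 0.24 SE without 1091 (edgeR adjusted p = 0.00214) and 2.47 ± 0.56 with it (edgeR adjusted p = 0.106, DESeq2 adjusted p = 0.00057).

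Among the largest falls 1091 mostly lay between the groups. Mpst, a mercaptopyruvate sulfurtransferase that forms hydrogen sulfide, had 65.3 and 50.3 CPM in 1089 and 1090, 25.8 in 1091, and 8.19, 13.2 and 13 in the KO mice. For Mpst the log2 fold change was -2.37 ± 0.26 SE without 1091 (edgeR adjusted p = 0.00151) and -2.06 ± 0.40 with it (edgeR adjusted p = 0.0851). Cbx3, the heterochromatin protein HP1γ, had 44.6 and 44.4 CPM in 1089 and 1090, 25.2 in 1091, and 10.9, 15 and 6.51 in the KO mice. For Cbx3 the log2 fold change was -2.000 ± 0.28 SE without 1091 (edgeR adjusted p = 0.0033) and -1.78 ± 0.37 with it (edgeR adjusted p = 0.0962). In both genes 1091 stood between the groups, and the males lay by the KO females, with 12.2 ± 1.57 CPM in wild type males and 13.4 ± 1.53 in KO males (SD, n = 3 each) for Mpst. Dnajc7, a co-chaperone of HSP70 and HSP90, fell from 42.8 and 50 CPM in 1089 and 1090 to 13.1, 16.5 and 9.46 in KO, with 1091 at 19.4. For Dnajc7 the log2 fold change was -1.81 ± 0.24 SE without 1091 (edgeR adjusted p = 0.00311) and -1.51 ± 0.39 with it (edgeR adjusted p = 0.123). Eml2, a microtubule-binding protein, fell from 48.6 and 37.5 CPM in 1089 and 1090 to 14.5, 13.2 and 8.28 in KO, with 1091 at 22.8. For Eml2 the log2 fold change was -1.80 ± 0.26 SE without 1091 (edgeR adjusted p = 0.00377) and -1.57 ± 0.36 with it (edgeR adjusted p = 0.106). AI182371 fell from 686 and 509.9 CPM in 1089 and 1090 to 274, 158 and 85.2 in KO, with 1091 at 369. For AI182371 the log2 fold change was -1.79 ± 0.35 SE without 1091 (edgeR adjusted p = 0.0125) and -1.59 ± 0.41 with it (edgeR adjusted p = 0.121).

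4 of the largest falls need care in reading. A1bg, a plasma glycoprotein that mouse livers make mainly in females, had 634 and 80.4 CPM in 1089 and 1090, 327 in 1091, and 33.0, 61.6 and 16.6 in the KO mice (log2 fold change -3.24 ± 0.67 SE and edgeR adjusted p = 0.0154 without 1091, -3.20 ± 0.69 and 0.0962 with it), and the wild types differed from one another more than the lowest of them differed from the highest KO mouse. Serpina1e, 1 of several near-identical α1-antitrypsin genes, had 252 and 97.9 CPM in 1089 and 1090, 139.7 in 1091, and 55.7, 13.9 and 49.1 in the KO mice (log2 fold change -2.15 ± 0.48 SE and edgeR adjusted p = 0.02 without 1091, -2.04 ± 0.50 and 0.117 with it), and reads could be split among the copies. Rps15a-ps6 and Mug-ps1 are pseudogenes by name, whose sequence is shared with parent genes, so their falls (log2 fold changes -2.09 and -1.81, edgeR adjusted p = 0.00232 and 0.00458) are uncertain in origin.

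**Figure D3:**
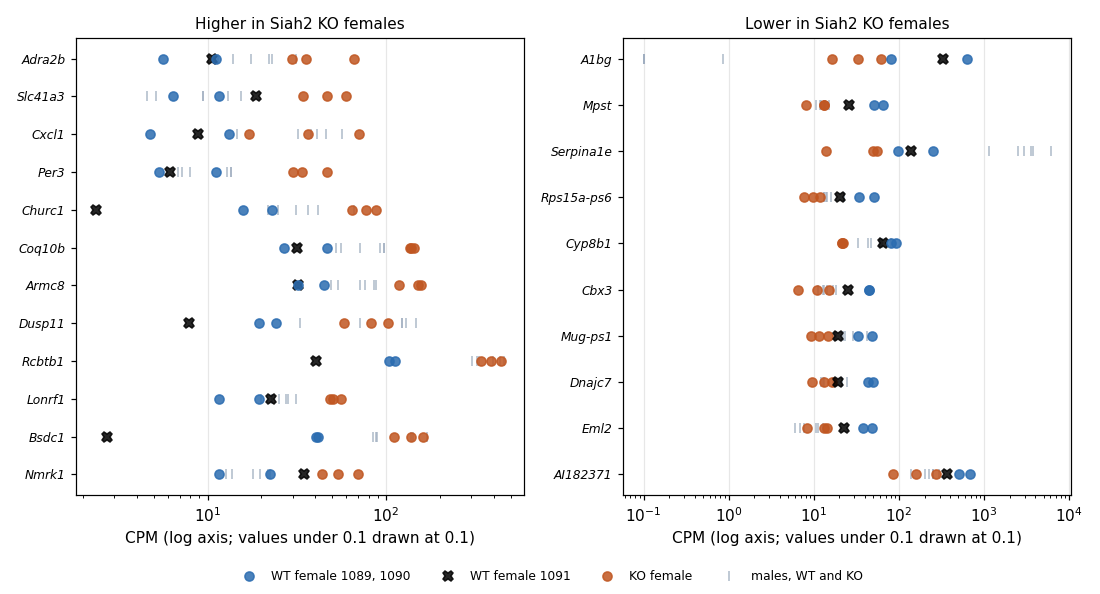
CPM of each mouse (horizontal log axis, points) for the 12 largest rises (left) and 10 of the 12 largest falls (right) among genes with no overlap between the 3 KO females (orange) and the 3 wild type females (1089 and 1090 blue, 1091 black cross), with the 6 males as grey ticks. The cross sits with the blue points in genes such as Armc8 and Per3, below them in Churc1 and Bsdc1, and between the groups in Mpst and Cbx3, where the males lie by the KO females.

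Gene lists for liver and SIAH2 biology were then read against the background of 5.21% higher and 4.43% lower. Each list is described by counts of its tested members and by its median, with no test of the list. The background is not matched for abundance, and called genes were more abundant than the rest, which bears on lists of abundant genes. The highest share of rises among pathway lists with at least 10 tested members was that of the oxidative phosphorylation subunits, with 14 of 73 (19.2%), against 2 falls. The core clock list followed with 3 of 16 (18.8%), spliceosome factors with 7 of 43 (16.3%), and cytosolic ribosomal proteins with 8 of 51 (15.7%), the last also with 8 falls. The highest shares of falls were those of oxidative stress genes with 6 of 27 (22.2%), acute phase proteins and serpins with 8 of 38 (21.1%), bile acid genes with 6 of 29 (20.7%) and male-biased genes with 4 of 20. With all 6 mice edgeR called none of these members. DESeq2 then called 4 rises of the oxidative phosphorylation list, 1 rise of the clock list, and 1, 4, 2 and 4 falls of the oxidative stress, acute phase, bile acid and male-biased lists. Some lists were called about as often as all genes tested (9.64%). Among them were nuclear transport and the mitochondrial ribosome (10% each), fatty acid synthesis and cytochrome P450 genes (9.52% each) and cholesterol genes (9.09%). Conjugation enzymes (7.89%), fatty acid oxidation (7.32%), interferon genes (6.25%) and insulin and cAMP signalling (4%) were called less often.

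**Figure D4:**
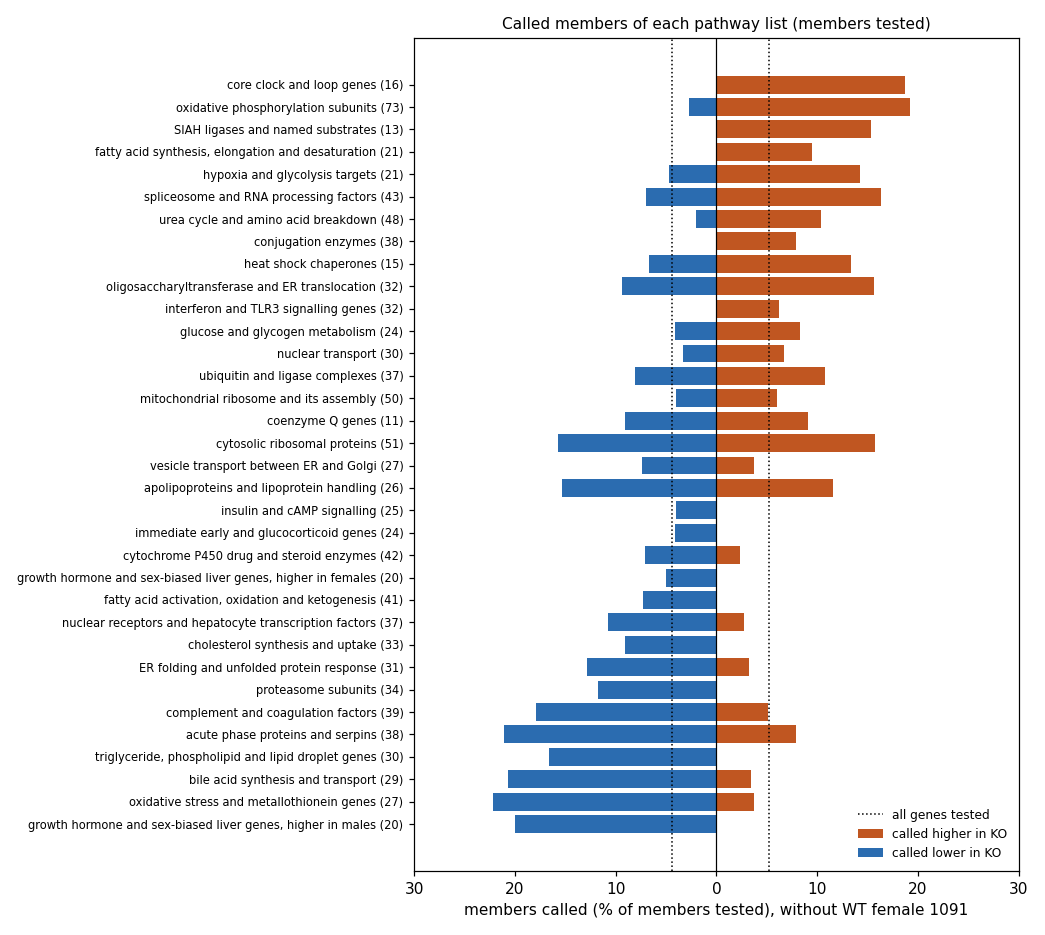
Members of each pathway list with at least 10 tested members that were called higher (orange, to the right) or lower (blue, to the left) without 1091, as percent of the members tested, whose number stands in brackets after each name. Dotted lines mark the 5.21% and 4.43% of all genes tested, and the lists run from mostly rises at the top (clock, oxidative phosphorylation) to mostly falls at the bottom (oxidative stress, male-biased genes).

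Of 13 tested genes on a list of SIAH ligases and named substrates, 2 rose and none fell. The list holds the whole EGLN family, and not each member need be a target of SIAH2. Egln1, the prolyl hydroxylase PHD2, had 47.5 and 53.6 CPM in 1089 and 1090, 27.9 in 1091, and 84.9, 102 and 90.5 in the KO mice (log2 fold change 0.86 ± 0.19 SE and edgeR adjusted p = 0.0199 without 1091, 1.11 ± 0.29 and 0.123 with it), with 1091 lowest of all, and was also called on all 6 mice (DESeq2 adjusted p = 0.0213). Egln2, the hydroxylase PHD1, had 148 and 189 CPM in 1089 and 1090, 587 in 1091, and 373, 309 and 257 in the KO mice. For Egln2 the log2 fold change was 0.89 ± 0.21 SE without 1091 (edgeR adjusted p = 0.0249) and 0.07 ± 0.44 with it (edgeR adjusted p = 0.965). In Egln2, however, 1091 lay above every KO mouse, and over all 6 mice the estimate was close to 0. Egln3, the third hydroxylase of this family and itself a hypoxia target, was at 20.7 and 24.7 CPM in 1089 and 1090, 35.0 in 1091, and 10.4, 16.9 and 11.8 in the KO mice and was not called. For Egln3 the log2 fold change was -0.81 ± 0.28 SE without 1091 (edgeR adjusted p = 0.0884) and -1.02 ± 0.31 with it (edgeR adjusted p = 0.16). Of 21 tested hypoxia and glycolysis targets, 3 rose and 1 fell, with a list median of 0.20 on the log2 scale. Next to Egln1 and Pgk1 these were Gapdh, a glycolytic dehydrogenase, with 87.5 and 94.1 CPM in 1089 and 1090, 214 in 1091, and 221, 220.0 and 183 in the KO mice (log2 fold change 1.19 ± 0.18 SE and edgeR adjusted p = 0.00508 without 1091, 0.69 ± 0.32 and 0.339 with it), and Vegfa, the angiogenic growth factor, with 56.4 and 47.9 CPM in 1089 and 1090, 16.3 in 1091, and 29.5, 24.9 and 30.8 in the KO mice. For Vegfa the log2 fold change was -0.89 ± 0.20 SE without 1091 (edgeR adjusted p = 0.021) and -0.51 ± 0.41 with it (edgeR adjusted p = 0.607). Gapdh of 1091 sat with the KO mice, and its Vegfa was lower than that of any KO mouse, so that neither was called with 1091 (DESeq2 adjusted p = 0.357 for Gapdh and 0.708 for Vegfa).

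In the clock list 3 of 16 tested genes rose and none fell, with a median log2 fold change of 0.15. Per3 was the only one called with all 6 mice by DESeq2. Csnk1d, the casein kinase 1δ that phosphorylates PER proteins, had 122 and 125 CPM in 1089 and 1090, 479 in 1091, and 265, 229.9 and 242 in the KO mice. For Csnk1d the log2 fold change was 0.99 ± 0.17 SE without 1091 (edgeR adjusted p = 0.00824) and 0.07 ± 0.45 with it (edgeR adjusted p = 0.965). In Csnk1d 1091 lay above all KO mice, so its call rests on leaving it out. Tef, 1 of the PAR bZIP factors that carry clock output, had 205 and 249.8 CPM in 1089 and 1090, 592 in 1091, and 621, 557 and 410.4 in the KO mice (log2 fold change 1.21 ± 0.21 SE and edgeR adjusted p = 0.00822 without 1091, 0.64 ± 0.37 and 0.441 with it), with 1091 again among the KO mice. Its relative Hlf had 98.6 and 139.6 CPM in 1089 and 1090, 134 in 1091, and 170.0, 201 and 198 in the KO mice, with KO above all wild types, but missed the threshold. For Hlf the log2 fold change was 0.66 ± 0.20 SE without 1091 (edgeR adjusted p = 0.0635) and 0.63 ± 0.23 with it (edgeR adjusted p = 0.216).

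The promoters of Per3, Coq10b and Tef are shown because PAR bZIP factors such as TEF bind the D-box. Per3 and Coq10b separated all 6 mice and also hold the D-box letters, so these promoters are not a sample of the called genes. Each window runs from 250 bases before the annotated start to 50 bases after it (RefSeq, GRCm38.p6), written 5′ to 3′ along the gene. Capitals mark the D-box TTATGTAA or its reverse complement TTACATAA, and the E-box CACGTG, which the CLOCK and BMAL1 activators bind.
Per3 (minus strand, chr4:151044616-151044915): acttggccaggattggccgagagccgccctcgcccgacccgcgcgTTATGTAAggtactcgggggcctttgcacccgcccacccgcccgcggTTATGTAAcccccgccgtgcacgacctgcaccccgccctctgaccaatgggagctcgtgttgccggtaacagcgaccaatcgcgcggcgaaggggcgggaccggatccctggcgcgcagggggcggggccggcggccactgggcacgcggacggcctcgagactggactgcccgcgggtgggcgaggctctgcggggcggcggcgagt
Coq10b (plus strand, chr1:55052520-55052819): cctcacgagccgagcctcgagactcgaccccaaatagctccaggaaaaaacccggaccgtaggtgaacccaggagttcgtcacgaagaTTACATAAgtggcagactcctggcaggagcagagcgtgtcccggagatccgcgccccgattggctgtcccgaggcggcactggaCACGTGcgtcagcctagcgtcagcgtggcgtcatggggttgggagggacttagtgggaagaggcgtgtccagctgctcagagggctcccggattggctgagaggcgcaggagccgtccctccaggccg
Tef (plus strand, 1 of its 2 annotated starts, chr15:81802423-81802722): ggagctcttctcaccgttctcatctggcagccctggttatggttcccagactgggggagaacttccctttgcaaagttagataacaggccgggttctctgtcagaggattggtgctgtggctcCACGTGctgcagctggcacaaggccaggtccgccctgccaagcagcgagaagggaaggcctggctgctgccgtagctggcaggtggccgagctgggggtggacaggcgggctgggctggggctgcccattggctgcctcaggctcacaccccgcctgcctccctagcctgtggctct
Per3 holds the D-box letters at 2 places, 205 to 198 and 158 to 151 bases before the start, and no E-box. Coq10b holds 1 D-box, 162 to 155 bases before the start, and 1 E-box, 78 to 73 bases before it. The Tef window holds 1 E-box, 127 to 122 bases before the start. On either strand TTATGTAA occurs in 308 of 32851 promoter windows (0.938%) and CACGTG in 2349 (7.15%). Among called genes with a window, the D-box letters were found in 6 of 423 rises (1.42%) and 1 of 347 falls (0.288%), against 56 of 7789 genes tested (0.719%). Per3 and Coq10b are 2 of these 6 rises. Armc8, Cyp8b1, Pgk1, Stt3a and Psmd13 also separated all 6 mice, but their windows hold no D-box letters. Tef itself did not separate all 6 mice, and whether TEF acts on these promoters was not tested. The E-box letters were found in 10.9% of the rises, 14.1% of the falls and 12.1% of the genes tested. The hypoxia response core ACGTGC, which overlaps the E-box in Coq10b and occurs without one in Pgk1, was found in 11.3% of rises, 8.36% of falls and 9.87% of genes tested. These are matches of letters and say nothing of binding.

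Ubiquitin genes moved in both directions, with 4 rises and 3 falls among 37 tested. Besides Armc8, Rmnd5a, the RING subunit of the same CTLH ligase as ARMC8, had 245 and 266 CPM in 1089 and 1090, 105 in 1091, and 487, 456 and 430.0 in the KO mice. For Rmnd5a the log2 fold change was 0.83 ± 0.17 SE without 1091 (edgeR adjusted p = 0.0149) and 1.15 ± 0.35 with it (edgeR adjusted p = 0.16, DESeq2 adjusted p = 0.028). Armc8 and Rmnd5a, 2 subunits of 1 ligase, thus rose without overlap, though in Rmnd5a wild type 1091 lay well below its own group. Lack of overlap was found in 65.0% of the called genes and 23.3% of all genes. The other rises of the list were Ddb1 and Cul4a, and the CTLH ligase was not tested as a complex. Cul1, the scaffold of the SCF ligases, fell from 60 and 62.2 CPM in 1089 and 1090 to 30, 27.9 and 29.6 in KO, with 1091 at 35.7. For Cul1 the log2 fold change was -1.07 ± 0.18 SE without 1091 (edgeR adjusted p = 0.00705) and -0.85 ± 0.28 with it (edgeR adjusted p = 0.197). Of 34 tested proteasome subunits none rose and 4 fell. Psmc1, an ATPase of the 19S cap, had 365 and 369 CPM in 1089 and 1090, 219.6 in 1091, and 183, 171 and 132 in the KO mice. For Psmc1 the log2 fold change was -1.18 ± 0.18 SE without 1091 (edgeR adjusted p = 0.00508) and -0.97 ± 0.28 with it (edgeR adjusted p = 0.148, DESeq2 adjusted p = 0.0447). Psmd3, another cap subunit, fell from 160.0 and 155 CPM in 1089 and 1090 to 96.9, 88.0 and 83.4 in KO, with 1091 at 118 (log2 fold change -0.82 ± 0.17 SE and edgeR adjusted p = 0.0154 without 1091, -0.68 ± 0.23 and 0.199 with it), and Psmb7, a catalytic subunit of the core, from 225 and 196 CPM in 1089 and 1090 to 137, 116 and 143 in KO, with 1091 at 192. For Psmb7 the log2 fold change was -0.68 ± 0.18 SE without 1091 (edgeR adjusted p = 0.037) and -0.62 ± 0.22 with it (edgeR adjusted p = 0.209). Psmd13 was the fourth, no other subunit was called, and the list median was -0.01.

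Genes of N-glycosylation and protein entry into the ER changed in both directions as well, with 5 rises and 3 falls among 32 tested. After Stt3a, the rises included Spcs3, a subunit of the signal peptidase, with 129 and 106 CPM in 1089 and 1090, 13.6 in 1091, and 453, 330.0 and 310.5 in the KO mice (log2 fold change 1.63 ± 0.22 SE and edgeR adjusted p = 0.0029 without 1091, 2.12 ± 0.62 and 0.154 with it), where 1091 was lower than any other female. Ddost, a further oligosaccharyltransferase subunit, had 33.2 and 28.9 CPM in 1089 and 1090, 135 in 1091, and 135, 82.5 and 79.2 in the KO mice (log2 fold change 1.67 ± 0.26 SE and edgeR adjusted p = 0.00527 without 1091, 0.64 ± 0.51 and 0.598 with it), where 1091 equalled the highest KO mouse. Sec61a1, the pore of the translocation channel, fell from 515 and 416 CPM in 1089 and 1090 to 245, 191 and 161 in KO, with 1091 at 635. For Sec61a1 the log2 fold change was -1.23 ± 0.20 SE without 1091 (edgeR adjusted p = 0.00681) and -1.37 ± 0.25 with it (edgeR adjusted p = 0.0793, DESeq2 adjusted p = 0.000329). In the list of ER folding genes 1 of 31 rose and 4 fell. Pdia3, a disulfide isomerase that folds glycoproteins, fell from 167 and 124 CPM in 1089 and 1090 to 62.2, 55.7 and 50.9 in KO, with 1091 at 109.8. For Pdia3 the log2 fold change was -1.37 ± 0.19 SE without 1091 (edgeR adjusted p = 0.00377) and -1.24 ± 0.25 with it (edgeR adjusted p = 0.0962, DESeq2 adjusted p = 0.00248). Atf4, a transcription factor of the stress response, fell from 135 and 163 CPM in 1089 and 1090 to 96.1, 78.8 and 84.6 in KO, with 1091 at 187. For Atf4 the log2 fold change was -0.79 ± 0.18 SE without 1091 (edgeR adjusted p = 0.0233) and -0.88 ± 0.22 with it (edgeR adjusted p = 0.118). In both genes all 3 KO mice lay below all 3 wild types. Pdia4 and Hyou1, a disulfide isomerase and a chaperone of the ER, also fell, with log2 fold changes of -1.01 and -1.10 (edgeR adjusted p = 0.0249 and 0.0486). With 1091 these were -0.69 and -0.85 (edgeR adjusted p = 0.427 and 0.314). In Pdia4 1091 lay below all KO mice. In Hyou1 it stood at 19.4 CPM, close to the KO mice at 18.6, 13.2 and 18.3. Of 27 tested genes of vesicle transport between ER and Golgi, 1 rose and 2 fell, none of them called by DESeq2 on 6 mice. The falls were the cargo receptors Tmed10, from 77.1 and 65.8 CPM in 1089 and 1090 to 32.5, 40.0 and 33.7 in KO, with 1091 at 48.6 (log2 fold change -1.02 ± 0.19 SE and edgeR adjusted p = 0.0109 without 1091, -0.84 ± 0.26 and 0.176 with it), and Tmed2 (log2 fold change -0.83, edgeR adjusted p = 0.0266).

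Oxidative phosphorylation had the most rises of any list. Without 1091, 52 of its 73 tested members had a positive log2 fold change, against 4807 of all 9709 genes, with a list median of 0.23. With 1091 included the median was -0.01, and DESeq2 called 4 rises (Atp5j, Ndufa4, Cycs and Ndufa1). Atp5a1, the α subunit of ATP synthase, had 1698 and 1881 CPM in 1089 and 1090, 3916 in 1091, and 5262, 4635 and 3679.8 in the KO mice. For Atp5a1 the log2 fold change was 1.33 ± 0.21 SE without 1091 (edgeR adjusted p = 0.00525) and 0.89 ± 0.34 with it (edgeR adjusted p = 0.241). Ndufs3, a core subunit of complex I, had 81.1 and 86.3 CPM in 1089 and 1090, 187 in 1091, and 248, 236 and 179 in the KO mice. For Ndufs3 the log2 fold change was 1.39 ± 0.20 SE without 1091 (edgeR adjusted p = 0.00377) and 0.94 ± 0.32 with it (edgeR adjusted p = 0.199). Cox8a, a subunit of cytochrome c oxidase, had 451 and 473 CPM in 1089 and 1090, 1472 in 1091, and 876, 805 and 809.6 in the KO mice. For Cox8a the log2 fold change was 0.84 ± 0.17 SE without 1091 (edgeR adjusted p = 0.0141) and 0.10 ± 0.40 with it (edgeR adjusted p = 0.937). In Atp5a1 and Ndufs3 1091 lay by the lowest KO mouse, and in Cox8a above all of them, so that among the 16 called members it was nearer to its own genotype in only 6. Ndufa1, an accessory subunit of complex I, kept the order of genotypes with 665 and 794 CPM in 1089 and 1090, 923 in 1091, and 1382, 1282 and 1330.1 in the KO mice. For Ndufa1 the log2 fold change was 0.86 ± 0.18 SE without 1091 (edgeR adjusted p = 0.0154) and 0.77 ± 0.23 with it (edgeR adjusted p = 0.16, DESeq2 adjusted p = 0.0339). The mitochondrial chaperonins Hspe1 and Hspd1 (HSP10 and HSP60) both rose, with 476 and 494 CPM in 1089 and 1090, 938 in 1091, and 1572, 1189 and 944 in the KO mice for Hspe1 (log2 fold change 1.34 ± 0.22 SE and edgeR adjusted p = 0.00702 without 1091, 0.99 ± 0.31 and 0.183 with it) and 526 and 499.5 CPM in 1089 and 1090, 761 in 1091, and 935, 936 and 849 in the KO mice for Hspd1. For Hspd1 the log2 fold change was 0.82 ± 0.17 SE without 1091 (edgeR adjusted p = 0.0158) and 0.63 ± 0.24 with it (edgeR adjusted p = 0.233). For both, 1091 lay between the groups, and the males had 621 ± 90.6 CPM in wild type males and 504 ± 73.6 in KO males (SD, n = 3 each) for Hspd1, near wild types 1089 and 1090. In coenzyme Q genes Coq10b was the 1 rise of 11 tested, and Adck3, a kinase-like protein of its synthesis, the 1 fall. Stip1, the adaptor between HSP70 and HSP90, fell from 40.3 and 33.6 CPM in 1089 and 1090 to 17.5, 20.2 and 16.0 in KO, with 1091 at 45.2. For Stip1 the log2 fold change was -1.05 ± 0.22 SE without 1091 (edgeR adjusted p = 0.016) and -1.13 ± 0.24 with it (edgeR adjusted p = 0.0962).

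Cytosolic ribosomal proteins split evenly into 8 rises and 8 falls of 51 tested, which for abundant genes with many processed copies may include reads shared with pseudogenes. Rps19 of the small subunit fell from 275 and 252 CPM in 1089 and 1090 to 117, 118 and 99.9 in KO, with 1091 at 172 (log2 fold change -1.24 ± 0.17 SE and edgeR adjusted p = 0.00328 without 1091, -1.06 ± 0.26 and 0.115 with it), Rpl7 of the large subunit fell from 439 and 486 CPM in 1089 and 1090 to 283, 238 and 200.5 in KO, with 1091 at 479 (log2 fold change -0.95 ± 0.18 SE and edgeR adjusted p = 0.0121 without 1091, -0.95 ± 0.22 and 0.11 with it), and Rpl5 rose from 325 and 347 CPM in 1089 and 1090 to 648, 654 and 549 in KO, with 1091 at 557. For Rpl5 the log2 fold change was 0.87 ± 0.18 SE without 1091 (edgeR adjusted p = 0.014) and 0.62 ± 0.25 with it (edgeR adjusted p = 0.275). DESeq2 on 6 mice called 3 rises and 5 falls in the list. Among mitochondrial ribosome genes 3 of 50 rose and 2 fell. Gtpbp10, a GTPase that helps assemble that ribosome, had 7.499 and 0.893 CPM in 1089 and 1090, 1.36 in 1091, and 16.1, 34.5 and 20.7 in the KO mice. For Gtpbp10 the log2 fold change was 2.55 ± 0.59 SE without 1091 (edgeR adjusted p = 0.024) and 2.90 ± 0.65 with it (edgeR adjusted p = 0.105, DESeq2 adjusted p = 0.000988). Mrpl33 fell from 67.1 and 61.6 CPM in 1089 and 1090 to 34.4, 27.1 and 31.3 in KO, with 1091 at 54.1. For Mrpl33 the log2 fold change was -1.06 ± 0.19 SE without 1091 (edgeR adjusted p = 0.00925) and -0.97 ± 0.23 with it (edgeR adjusted p = 0.115). Of 43 tested spliceosome and RNA processing factors, 7 rose and 3 fell, among the rises Dusp11. Hnrnpa2b1, a binding protein of nascent RNA, rose from 228 and 294 CPM in 1089 and 1090 to 502, 519 and 509 in KO, with 1091 at 177. For Hnrnpa2b1 the log2 fold change was 0.96 ± 0.18 SE without 1091 (edgeR adjusted p = 0.0114) and 1.14 ± 0.26 with it (edgeR adjusted p = 0.106). Snrnp70, a protein of the U1 snRNP, rose from 133 and 123 CPM in 1089 and 1090 to 269, 223 and 259 in KO, with 1091 at 219. For Snrnp70 the log2 fold change was 0.96 ± 0.18 SE without 1091 (edgeR adjusted p = 0.0104) and 0.69 ± 0.25 with it (edgeR adjusted p = 0.224). In nuclear transport 2 of 30 rose and 1 fell, led by Kpnb1, the importin β that carries proteins into the nucleus, with 66.8 and 67.3 CPM in 1089 and 1090, 42.5 in 1091, and 175, 166 and 145 in the KO mice. For Kpnb1 the log2 fold change was 1.27 ± 0.18 SE without 1091 (edgeR adjusted p = 0.00381) and 1.47 ± 0.26 with it (edgeR adjusted p = 0.0793, DESeq2 adjusted p = 0.000122).

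Called genes of bile acids and cholesterol were mostly falls. Of 29 tested genes of bile acid synthesis and transport, 6 fell and 1 rose (24.1% called, against 9.64% of all genes tested). The list median was -0.08, with 16 negative and 13 positive log2 fold changes. DESeq2 on all 6 mice called 2 of the falls. Besides Cyp8b1, Abcb4, which exports phospholipid into bile, had 317 and 403 CPM in 1089 and 1090, 275 in 1091, and 119.8, 183 and 204 in the KO mice. For Abcb4 the log2 fold change was -1.10 ± 0.23 SE without 1091 (edgeR adjusted p = 0.0168) and -0.96 ± 0.28 with it (edgeR adjusted p = 0.156, DESeq2 adjusted p = 0.0443). Abcc2, the exporter of conjugated bilirubin and other anions into bile, had 196 and 194 CPM in 1089 and 1090, 115 in 1091, and 101, 100.1 and 113 in the KO mice. For Abcc2 the log2 fold change was -0.90 ± 0.17 SE without 1091 (edgeR adjusted p = 0.0104) and -0.68 ± 0.27 with it (edgeR adjusted p = 0.263). Abcb4 separated all 6 mice, whereas in Abcc2 wild type 1091 fell close to the KO mice. The single rise was Akr1d1, the steroid 5β-reductase of bile acid synthesis, with 69.6 and 74.7 CPM in 1089 and 1090, 15 in 1091, and 113, 173 and 135 in the KO mice. For Akr1d1 the log2 fold change was 0.95 ± 0.22 SE without 1091 (edgeR adjusted p = 0.0223) and 1.39 ± 0.50 with it (edgeR adjusted p = 0.214). Of 33 tested cholesterol genes none rose and 3 fell (9.09% called, close to the 9.64% of all genes). DESeq2 on all 6 mice called only Npc1 of them. Npc1, which moves cholesterol out of lysosomes, had 73.2 and 70.6 CPM in 1089 and 1090, 43.5 in 1091, and 30.3, 25.3 and 33.1 in the KO mice (log2 fold change -1.30 ± 0.19 SE and edgeR adjusted p = 0.00458 without 1091, -1.08 ± 0.28 and 0.126 with it, DESeq2 adjusted p = 0.0405), and Lipa, the lysosomal acid lipase that frees that cholesterol, had 134 and 129.8 CPM in 1089 and 1090, 151 in 1091, and 84.3, 82.1 and 87.5 in the KO mice. For Lipa the log2 fold change was -0.64 ± 0.17 SE without 1091 (edgeR adjusted p = 0.0372) and -0.69 ± 0.20 with it (edgeR adjusted p = 0.156). Both lysosomal genes separated all 6 mice. The third was Srebf2, the transcription factor that turns on cholesterol synthesis, and the list median was -0.22.

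Called genes of fat storage and oxidation were all falls, but few of those tested were called. Of 41 tested genes of fatty acid activation, oxidation and ketogenesis none rose and 3 fell. That is 7.32% called, against 9.64% of all genes tested, so this list was called no more often than other genes. All 3 had no overlap, as had 65.0% of the called genes and 23.3% of all genes. Crot, the carnitine octanoyltransferase of peroxisomes, had 372 and 445 CPM in 1089 and 1090, 228 in 1091, and 109, 128 and 123 in the KO mice. For Crot the log2 fold change was -1.77 ± 0.18 SE without 1091 (edgeR adjusted p = 0.00117) and -1.53 ± 0.29 with it (edgeR adjusted p = 0.0851, DESeq2 adjusted p = 0.000276). Acads, the short-chain acyl-CoA dehydrogenase, had 213 and 206 CPM in 1089 and 1090, 180.2 in 1091, and 78.1, 105 and 70.4 in the KO mice. For Acads the log2 fold change was -1.31 ± 0.20 SE without 1091 (edgeR adjusted p = 0.00495) and -1.23 ± 0.24 with it (edgeR adjusted p = 0.0883, DESeq2 adjusted p = 0.00135). Acsl1, which activates long-chain fatty acids, had 602 and 680.2 CPM in 1089 and 1090, 639 in 1091, and 269, 394 and 429 in the KO mice. For Acsl1 the log2 fold change was -0.82 ± 0.22 SE without 1091 (edgeR adjusted p = 0.0373) and -0.80 ± 0.25 with it (edgeR adjusted p = 0.184). In these genes 1091 was with the wild types or, for Crot, about midway on the log scale. Of 30 tested triglyceride, phospholipid and lipid droplet genes none rose and 5 fell (16.7% called). Plin2, the main coat protein of liver lipid droplets, had 415 and 529 CPM in 1089 and 1090, 802 in 1091, and 161, 275 and 209 in the KO mice. For Plin2 the log2 fold change was -1.14 ± 0.23 SE without 1091 (edgeR adjusted p = 0.014) and -1.41 ± 0.30 with it (edgeR adjusted p = 0.0962, DESeq2 adjusted p = 0.00228). Agpat3, an acyltransferase of phospholipid synthesis, had 128 and 150.0 CPM in 1089 and 1090, 124 in 1091, and 65.8, 71.1 and 67.4 in the KO mice. For Agpat3 the log2 fold change was -1.04 ± 0.18 SE without 1091 (edgeR adjusted p = 0.00705) and -0.96 ± 0.22 with it (edgeR adjusted p = 0.105, DESeq2 adjusted p = 0.0112). Pnpla7, a lysophospholipase, had 150.3 and 78.0 CPM in 1089 and 1090, 104 in 1091, and 46.9, 58.3 and 39.0 in the KO mice. For Pnpla7 the log2 fold change was -1.24 ± 0.27 SE without 1091 (edgeR adjusted p = 0.0194) and -1.19 ± 0.29 with it (edgeR adjusted p = 0.118, DESeq2 adjusted p = 0.0188). All 3 separated the groups with 1091 included, as did Plin3, another droplet coat protein, which fell from 55.0 and 45.5 CPM in 1089 and 1090 to 22.9, 29.3 and 26.0 in KO, with 1091 at 42.5. For Plin3 the log2 fold change was -0.96 ± 0.21 SE without 1091 (edgeR adjusted p = 0.018) and -0.86 ± 0.25 with it (edgeR adjusted p = 0.144). The fifth fall was Lipe, the hormone-sensitive lipase. The list medians were modest, -0.14 for the oxidation list and -0.17 for the droplet list on the log2 scale.

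In fatty acid synthesis 2 of 21 tested genes rose and none fell. Slc25a1, the mitochondrial citrate carrier, had 102 and 68.8 CPM in 1089 and 1090, 325 in 1091, and 224, 227 and 165 in the KO mice (log2 fold change 1.26 ± 0.23 SE and edgeR adjusted p = 0.00925 without 1091, 0.36 ± 0.47 and 0.762 with it), and Pklr, the liver pyruvate kinase, had 18.6 and 12.5 CPM in 1089 and 1090, 26.2 in 1091, and 40.1, 41.4 and 23.7 in the KO mice. For Pklr the log2 fold change was 1.20 ± 0.29 SE without 1091 (edgeR adjusted p = 0.0279) and 0.91 ± 0.32 with it (edgeR adjusted p = 0.209). Leaving out 1091 decides both calls, since its level exceeded all KO mice for Slc25a1 and overlapped them for Pklr. Thrsp, a gene that follows lipogenesis, had 127 and 118 CPM in 1089 and 1090, 165 in 1091, and 275, 534 and 141 in the KO mice and was not called. Lipoprotein genes split into 3 rises and 4 falls among 26 tested. Apob, the structural protein of VLDL, had 457 and 394 CPM in 1089 and 1090, 159 in 1091, and 125, 145 and 169 in the KO mice. For Apob the log2 fold change was -1.55 ± 0.19 SE without 1091 (edgeR adjusted p = 0.00214) and -1.20 ± 0.38 with it (edgeR adjusted p = 0.182, DESeq2 adjusted p = 0.0468). Tm6sf2, which helps load lipid onto VLDL, had 28.2 and 29.2 CPM in 1089 and 1090, 23.1 in 1091, and 6.82, 11 and 10.6 in the KO mice. For Tm6sf2 the log2 fold change was -1.64 ± 0.28 SE without 1091 (edgeR adjusted p = 0.00705) and -1.51 ± 0.30 with it (edgeR adjusted p = 0.0962, DESeq2 adjusted p = 0.00984). Apoa5, which promotes triglyceride clearance from plasma, had 1194 and 1929 CPM in 1089 and 1090, 4553 in 1091, and 3661, 3847 and 4204 in the KO mice. For Apoa5 the log2 fold change was 1.32 ± 0.23 SE without 1091 (edgeR adjusted p = 0.00826) and 0.65 ± 0.42 with it (edgeR adjusted p = 0.495). Tm6sf2 separated the groups clearly, Apob of 1091 was within the range of the KO mice, and Apoa5 of 1091 exceeded it.

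Among 24 tested genes of glucose and glycogen metabolism 2 rose and 1 fell. Gys2, the liver glycogen synthase, had 141 and 134 CPM in 1089 and 1090, 155 in 1091, and 393, 274 and 339 in the KO mice (log2 fold change 1.28 ± 0.20 SE and edgeR adjusted p = 0.00527 without 1091, 1.25 ± 0.23 and 0.0793 with it, DESeq2 adjusted p = 0.000198), with 1091 by the other wild types. Khk, the fructokinase, had 295 and 352 CPM in 1089 and 1090, 690.1 in 1091, and 716, 737 and 552 in the KO mice (log2 fold change 1.04 ± 0.19 SE and edgeR adjusted p = 0.0104 without 1091, 0.62 ± 0.31 and 0.382 with it), with 1091 among the KO mice, and Gckr, the regulator of glucokinase, was the fall, from 152 and 144 CPM in 1089 and 1090 to 98.3, 96.1 and 97.6 in KO, with 1091 at 138. For Gckr the log2 fold change was -0.61 ± 0.17 SE without 1091 (edgeR adjusted p = 0.0435) and -0.56 ± 0.21 with it (edgeR adjusted p = 0.224). Pck1, the rate-limiting enzyme of gluconeogenesis, was called by DESeq2 only, at 2805 and 7908 CPM in 1089 and 1090, 2005 in 1091, and 12819, 8935 and 16494 in the KO mice. For Pck1 the log2 fold change was 1.25 ± 0.39 SE without 1091 (edgeR adjusted p = 0.0702) and 1.59 ± 0.51 with it (edgeR adjusted p = 0.19, DESeq2 adjusted p = 0.0179). Of 48 tested genes of the urea cycle and amino acid breakdown, 5 rose and 1 fell, with a list median of 0.27. Gpt2, a mitochondrial alanine aminotransferase, had 501 and 976 CPM in 1089 and 1090, 953 in 1091, and 1463, 2079 and 1560.2 in the KO mice. For Gpt2 the log2 fold change was 1.20 ± 0.28 SE without 1091 (edgeR adjusted p = 0.0255) and 1.09 ± 0.31 with it (edgeR adjusted p = 0.138, DESeq2 adjusted p = 0.0235). Its cytosolic relative Gpt had 171 and 183 CPM in 1089 and 1090, 363 in 1091, and 428, 429 and 266 in the KO mice. For Gpt the log2 fold change was 1.07 ± 0.22 SE without 1091 (edgeR adjusted p = 0.0159) and 0.68 ± 0.32 with it (edgeR adjusted p = 0.344). Gldc, the glycine decarboxylase, had 62.1 and 92.3 CPM in 1089 and 1090, 137 in 1091, and 172, 164 and 156 in the KO mice (log2 fold change 1.08 ± 0.21 SE and edgeR adjusted p = 0.0115 without 1091, 0.79 ± 0.27 and 0.203 with it), and Sds, the serine dehydratase, had 77.1 and 117 CPM in 1089 and 1090, 8.16 in 1091, and 247, 242 and 309 in the KO mice. For Sds the log2 fold change was 1.44 ± 0.23 SE without 1091 (edgeR adjusted p = 0.00546) and 1.97 ± 0.67 with it (edgeR adjusted p = 0.201). For Gpt2 and Gldc all KO mice were above all wild types, Gpt of 1091 fell within the KO range, and Sds of 1091 was lower than that of any other female.

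Antioxidant genes made up the list with the highest share of falls. Of 27 tested, 6 fell and 1 rose, with a list median of -0.29. Gpx1, the main cytosolic glutathione peroxidase, had 4272 and 4536 CPM in 1089 and 1090, 4311 in 1091, and 2566, 2612 and 2279 in the KO mice. For Gpx1 the log2 fold change was -0.83 ± 0.17 SE without 1091 (edgeR adjusted p = 0.0158) and -0.80 ± 0.24 with it (edgeR adjusted p = 0.162, DESeq2 adjusted p = 0.0143). Cat, the peroxisomal catalase, had 1210.5 and 1481 CPM in 1089 and 1090, 878 in 1091, and 841, 764 and 759 in the KO mice (log2 fold change -0.78 ± 0.17 SE and edgeR adjusted p = 0.0209 without 1091, -0.59 ± 0.27 and 0.329 with it), and Gclc, the catalytic subunit of the first enzyme of glutathione synthesis, had 172 and 159 CPM in 1089 and 1090, 72.8 in 1091, and 81.9, 72.6 and 95.2 in the KO mice. For Gclc the log2 fold change was -1.003 ± 0.18 SE without 1091 (edgeR adjusted p = 0.00988) and -0.70 ± 0.34 with it (edgeR adjusted p = 0.36). Gpx1 of 1091 was with the wild types, whereas its Cat was only just above the KO mice and its Gclc among them. The rise was Gsr, the glutathione reductase, with 61.4 and 61.0 CPM in 1089 and 1090, 55.1 in 1091, and 118, 119.9 and 125 in the KO mice. For Gsr the log2 fold change was 0.98 ± 0.18 SE without 1091 (edgeR adjusted p = 0.00938) and 1.05 ± 0.21 with it (edgeR adjusted p = 0.0962, DESeq2 adjusted p = 0.00258). Of 42 tested cytochrome P450 genes 1 rose and 3 fell. Cyp2e1, an ethanol-metabolizing enzyme of pericentral hepatocytes, had 3885 and 3544 CPM in 1089 and 1090, 3335 in 1091, and 7459.7, 6466 and 7412 in the KO mice (log2 fold change 0.93 ± 0.19 SE and edgeR adjusted p = 0.0142 without 1091, 0.999 ± 0.26 and 0.122 with it, DESeq2 adjusted p = 0.000757), without overlap. Of the falls, Cyp3a13 fell from 221 and 223 CPM in 1089 and 1090 to 155, 134 and 124 in KO, with 1091 at 129.9 (log2 fold change -0.69 ± 0.17 SE and edgeR adjusted p = 0.0303 without 1091, -0.47 ± 0.27 and 0.446 with it), while Cyp2c40 and Cyp2c38 belong to a cluster of similar genes in which reads may be shared. Of 38 conjugation enzymes 3 rose and none fell, with Gstm6, a glutathione transferase, rising from 59.3 and 45.5 CPM in 1089 and 1090 to 139.7, 104 and 110 in KO, with 1091 at 160.1. For Gstm6 the log2 fold change was 1.17 ± 0.21 SE without 1091 (edgeR adjusted p = 0.00949) and 0.46 ± 0.40 with it (edgeR adjusted p = 0.636).

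Called genes for plasma proteins were more often falls than rises. Of 39 tested complement and coagulation genes 7 fell and 2 rose, and of 38 acute phase and serpin genes 8 fell and 3 rose. Fga, the fibrinogen α chain, had 2337 and 2000.2 CPM in 1089 and 1090, 1384 in 1091, and 1004, 925 and 713 in the KO mice. For Fga the log2 fold change was -1.31 ± 0.19 SE without 1091 (edgeR adjusted p = 0.00434) and -1.11 ± 0.29 with it (edgeR adjusted p = 0.123, DESeq2 adjusted p = 0.00968). C8b, a subunit of the complement membrane attack complex, had 199 and 87.8 CPM in 1089 and 1090, 114 in 1091, and 51.0, 52.8 and 48.5 in the KO mice. For C8b the log2 fold change was -1.50 ± 0.29 SE without 1091 (edgeR adjusted p = 0.0115) and -1.39 ± 0.32 with it (edgeR adjusted p = 0.108, DESeq2 adjusted p = 0.00619). Fetub, the protease inhibitor fetuin B, had 389 and 335 CPM in 1089 and 1090, 404 in 1091, and 225, 191 and 170.3 in the KO mice. For Fetub the log2 fold change was -0.89 ± 0.18 SE without 1091 (edgeR adjusted p = 0.0139) and -0.93 ± 0.22 with it (edgeR adjusted p = 0.11, DESeq2 adjusted p = 0.0105). All 3 separated the 6 mice by genotype. Serpind1, the thrombin inhibitor heparin cofactor II, fell from 243 and 231 CPM in 1089 and 1090 to 159.7, 122 and 111 in KO, with 1091 at 178. For Serpind1 the log2 fold change was -0.86 ± 0.19 SE without 1091 (edgeR adjusted p = 0.0199) and -0.72 ± 0.25 with it (edgeR adjusted p = 0.201). Serpina1a rose without 1091, but as a copy of α1-antitrypsin it could share reads with Serpina1e, and 1091 exceeded all KO mice (2417 and 2240.2 CPM in 1089 and 1090, 10104 in 1091, and 7564, 6068 and 4812 in the KO mice).

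Among liver genes known to be higher in males, 4 of 20 tested fell in KO females and none rose, and the list median was -0.78. Egfr, the receptor of epidermal growth factor, had 121 and 64.9 CPM in 1089 and 1090, 55.8 in 1091, and 37.1, 30.1 and 37.3 in the KO mice. For Egfr the log2 fold change was -1.42 ± 0.26 SE without 1091 (edgeR adjusted p = 0.00946) and -1.21 ± 0.33 with it (edgeR adjusted p = 0.129, DESeq2 adjusted p = 0.0334). C8a, a further subunit of the membrane attack complex, had 307 and 191 CPM in 1089 and 1090, 287 in 1091, and 83.5, 88.0 and 163 in the KO mice. For C8a the log2 fold change was -1.18 ± 0.30 SE without 1091 (edgeR adjusted p = 0.0331) and -1.22 ± 0.32 with it (edgeR adjusted p = 0.125, DESeq2 adjusted p = 0.0164). Mup1, a major urinary protein with many near-identical copies, had 37.5 and 35.4 CPM in 1089 and 1090, 2.38 in 1091, and 1.36, 1.83 and 2.96 in the KO mice (log2 fold change -4.25 ± 0.33 SE and edgeR adjusted p = 0.000471 without 1091, DESeq2 adjusted p = 0.000724), with 1091 within the range of the KO mice. With all 6 mice edgeR did not test Mup1. The fourth was Serpina1e. For comparison the males had 140.4 ± 55.2 CPM in wild type males and 119 ± 5.66 in KO males (SD, n = 3 each) for Egfr and 582 ± 149 CPM in wild type males and 662 ± 74.8 in KO males (SD, n = 3 each) for C8a. Of 20 tested female-biased genes only A1bg was called. Among nuclear receptors and liver transcription factors 4 of 37 fell and 1 rose. Foxa3, a forkhead factor of hepatocytes, had 208 and 125 CPM in 1089 and 1090, 179 in 1091, and 68.5, 59.0 and 36.7 in the KO mice (log2 fold change -1.59 ± 0.27 SE and edgeR adjusted p = 0.00705 without 1091, -1.62 ± 0.29 and 0.0793 with it, DESeq2 adjusted p = 0.000293), and Nr1i2, the xenobiotic receptor PXR, had 93.2 and 168 CPM in 1089 and 1090, 149.6 in 1091, and 63.6, 76.6 and 55.6 in the KO mice. For Nr1i2 the log2 fold change was -1.01 ± 0.25 SE without 1091 (edgeR adjusted p = 0.0306) and -1.05 ± 0.27 with it (edgeR adjusted p = 0.121, DESeq2 adjusted p = 0.032). Both separated all 6 mice. Hdac3, the deacetylase that REVERBα recruits through its corepressor, was at 17.9 and 15.8 CPM in 1089 and 1090, 4.42 in 1091, and 7.10, 8.43 and 8.87 in the KO mice (log2 fold change -1.07 ± 0.28 SE and edgeR adjusted p = 0.0372 without 1091, -0.66 ± 0.49 and 0.571 with it), with 1091 lowest of all. Prkaca, the catalytic subunit of protein kinase A, was the only called gene of 25 in insulin and cAMP signalling, with 147 and 99.4 CPM in 1089 and 1090, 80.6 in 1091, and 52.4, 56.8 and 44.4 in the KO mice. For Prkaca the log2 fold change was -1.27 ± 0.21 SE without 1091 (edgeR adjusted p = 0.00702) and -1.08 ± 0.28 with it (edgeR adjusted p = 0.123, DESeq2 adjusted p = 0.0294).

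**Figure D5:**
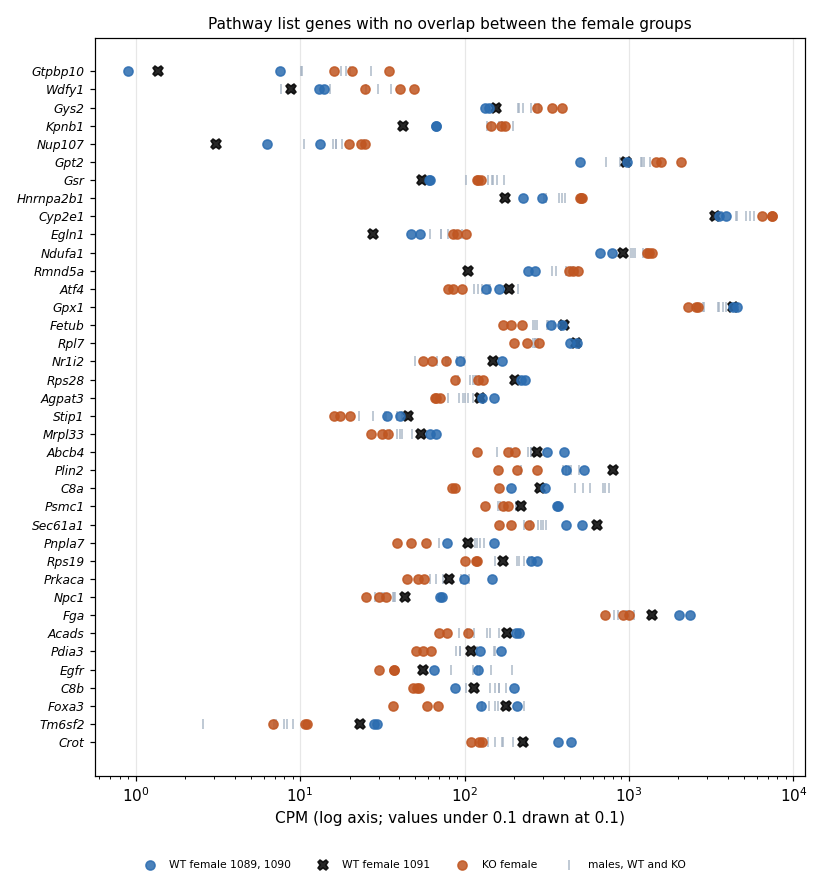
CPM of each mouse (horizontal log axis) for the 38 list genes, beyond those already plotted, that were called without 1091, were also called by DESeq2 on all 6 mice and did not overlap between the female groups. They are ordered from the 12 rises at the top to the 26 falls below, with wild types 1089 and 1090 in blue, 1091 as a black cross, KO females in orange and males as grey ticks. The genes were picked so that the cross lies outside the range of the KO mice, and it stands next to the blue points for Gys2, Gpx1 and Agpat3 and about midway on the log axis for Fga and Npc1.

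Markers of other cell types were read beside these lists, since in whole liver fewer cells of a type and less RNA per cell cannot be told apart. Hepatocyte markers summed to 73164, 77469 and 84702 CPM in wild types 1089, 1090 and 1091 and to 82929, 73039 and 67843 in the KO mice, which overlap, and 3 of 15 tested rose and 2 fell. Stellate cell and fibroblast markers summed to 527, 528 and 324 CPM in the wild types and 371, 322 and 275 in KO. Their 11 tested members held 2 falls, in Dcn, a matrix proteoglycan, from 242 and 272 CPM in 1089 and 1090 to 144, 144 and 101 in KO, with 1091 at 109.8 (log2 fold change -0.99 ± 0.19 SE and edgeR adjusted p = 0.0125 without 1091, -0.68 ± 0.35 and 0.383 with it), and Bgn, its relative biglycan (log2 fold change -0.69, edgeR adjusted p = 0.0372), and 10 of the 11 had a negative log2 fold change. Sinusoidal endothelial markers summed to 480, 500.1 and 552 CPM in the wild types and 425, 425 and 441 in KO, with 2 falls among 15 (Pecam1 and Bmp2), and 12 of the 15 were negative. Over all genes tested 4902 of 9709 were negative. Kupffer cell and macrophage markers summed to 793, 593 and 712 CPM against 1060.1, 477 and 555, with falls in Vsig4 and C1qa among 14. None of the falls in the stellate, endothelial and Kupffer lists was called by DESeq2 on 6 mice, whereas Apob among the hepatocyte markers was. Pericentral markers summed to 8992, 8479 and 9662 CPM in the wild types and 13883, 12889 and 13383 in KO, with rises in Cyp2e1 and Slc1a2 among 13 tested and a list median of 0.09. Without Cyp2e1 the other 12 tested summed to 5105, 4934 and 6325 CPM against 6420.4, 6419 and 5968, which overlap, and periportal markers summed to 31458, 41533 and 22249 against 39541, 32382 and 37289 and overlapped. Of 8 fat cell markers 4, including Adipoq and Plin1, were at 0 in all 6 females, and their sum was 229 CPM in 1091 against 752 to 892 in the other 5. Of 10 red cell markers the 4 hemoglobin genes were at 0 in all 6, although the list as a whole summed to 92.5 to 147 CPM. How reads with several hits were counted is not given, so these zeros do not measure the blood in the samples. Of 32 interferon and TLR3 genes 2 rose and none fell, with Wdfy1, an endosomal adaptor of TLR signalling, rising from 13.9 and 13.1 CPM in 1089 and 1090 to 24.8, 40.3 and 49.1 in KO, with 1091 at 8.84. For Wdfy1 the log2 fold change was 1.46 ± 0.31 SE without 1091 (edgeR adjusted p = 0.0167) and 1.67 ± 0.34 with it (edgeR adjusted p = 0.0962, DESeq2 adjusted p = 0.00256). Of 24 immediate early and glucocorticoid genes only Klf2, a flow-responsive factor of endothelium, was called, falling from 17.5 and 26.5 CPM in 1089 and 1090 to 6.55, 2.93 and 9.46 in KO, with 1091 at 8.16. For Klf2 the log2 fold change was -1.87 ± 0.39 SE without 1091 (edgeR adjusted p = 0.0156) and -1.51 ± 0.52 with it (edgeR adjusted p = 0.203). T and B cell, bile duct, red cell, fat, pancreas and cell cycle lists had no called member. The part of these cell types in the other results was not tested.

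Whether a change differed between the sexes was tested as the difference of the KO effect in females minus that in males. Over all 12 mice edgeR called 25 of 9806 genes (0.255%), and without 1091 it called 522 of 10127 (5.15%). These comparisons share the female mice with the comparisons above, and so are not independent of them. Cyp8b1 had a difference of -2.29 ± 0.37 on the log2 scale (edgeR adjusted p = 0.046), with 46.4 ± 15.2 CPM in wild type males and 62.3 ± 16.6 in KO males (SD, n = 3 each). Pgk1 had a difference of 2.16 ± 0.35 (edgeR adjusted p = 0.046), with 47.0 ± 13 CPM in wild type males and 36.7 ± 7.49 in KO males (SD, n = 3 each). In Armc8 the difference was 2.02 ± 0.36 and in Coq10b 2.13 ± 0.39 (edgeR adjusted p = 0.046 for each). The male level of Armc8 and Coq10b lay between the female groups. In other genes of the 25, males of both genotypes lay by the KO females and away from 1089 and 1090. Rcbtb1 had 386 ± 56.2 CPM in wild type males and 363 ± 81.8 in KO males (SD, n = 3 each). Kpnb1 had 170 ± 25.3 and 156 ± 16.6. The female means were 390 CPM in KO and 108 in 1089 and 1090 for Rcbtb1, and 162 and 67.0 for Kpnb1. The 25 calls were all close to the threshold. Leaving out 1 mouse other than 1091 gave from 0 to 9 calls, with 0 on leaving out KO female 1070, among others.

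Chromosome and transcript properties, which the comparison did not use, were read for the called genes. Chromosomes held from 6.49% (chromosome 14) to 13.2% (chromosome 19) called genes among those tested, around the 9.64% of all. The longest coding transcripts of the rises had a median GC content of 49.7%, those of the falls 51.7% and those of all genes tested 49.7% (GENCODE M1 transcripts, matched by symbol for 92.7% or more of each set). Their median lengths were 2778 bases for the rises and 2616 bases for the falls, against 3028 bases for all genes tested.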

How the data were processed

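The authors extracted liver RNA, had QuantSeq 3′ libraries made and sequenced, and mapped the reads on the BaseSpace platform, as the study's methods state. The submitters' processing notes name STAR, DESeq and the mm10 build without versions. How strand and reads with several hits were handled is not given in the sources used. The deposited values are raw counts per gene symbol, 1 table per sex, and some symbols that a spreadsheet had turned into dates were left unnamed. Groups came from the labels, and the members and lists were chosen with earlier results of these data known.

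Counts were analysed in R 4.3.3 with edgeR 4.0.16 (filterByExpr, TMM, quasi-likelihood F test, Benjamini-Hochberg adjusted p under 0.05, two-sided), DESeq2 1.42.0 and limma 3.58.1. Summaries and plots used Python 3.11.15, pandas 2.3.3, numpy 2.4.6 and matplotlib 3.10.9. The SE printed with edgeR estimates is the absolute log2 fold change divided by the square root of the F statistic. It was worked back from the test and adds nothing to its p-value. Positions between groups used log2 CPM with a prior count of 3. The scripts were tested on simulated data. 0 columns were left unmapped.

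Genes were named by rule, namely Siah2, Siah1a and Siah1b, then the 12 smallest p-values over 6 mice (mean of at least 10 CPM), then the 12 largest rises and falls called without 1091 with no overlap (mean of at least 20 CPM), then up to 4 members of each list by p without 1091, and last the 5 genes highest and lowest in 1091. Some genes that the rule names are not reported here. Predicted genes named Gm or Rik and date symbols were skipped. Other list members in the text were named after their values were seen. Alternatives were DESeq2, limma-voom, other scaling, filters and depth, and leaving out each mouse. Gene positions, promoters and motif searches on both strands used RefSeq on GRCm38.p6.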

Additional observations from a re-analysis of the deposited data

Results flagged for a closer look

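In edgeR's interaction test over all 12 mice, 25 genes had a change in females that differed from that in males. Only those among the named genes are listed, as the log2 difference of the KO effect (females minus males) ± SE. Most named genes were picked for their change in these same females, so the list is not a sample of the 25. Among those listed, the largest positive differences were those of Gtpbp10 at 3.74 ± 0.72 and Dusp11 at 3.06 ± 0.59. For both, a male log2 fold change of -0.84, not called, adds to the difference. They were followed by Rcbtb1 at 2.29 ± 0.44, Pgk1 at 2.16 ± 0.35, Coq10b at 2.13 ± 0.39 and Armc8 at 2.02 ± 0.36. Smaller positive differences were those of Lonrf1 at 1.82 ± 0.35, Prpf18 at 1.80 ± 0.30, Gcnt2 at 1.70 ± 0.28 and Kpnb1 at 1.61 ± 0.31. Negative differences were those of Mup1 at -5.07 ± 0.97, Cyp8b1 at -2.29 ± 0.37, Psmd13 at -1.64 ± 0.32 and Sec61a1 at -1.61 ± 0.28. Their edgeR adjusted p-values were 0.046 to 0.0483 with all 12 mice and 6.36e-05 (Mup1) to 0.0104 (Gtpbp10) without wild type female 1091. No gene was called by edgeR within males, where DESeq2 called 6 genes and 357 passed 0.05 in edgeR before adjustment. Reads of Mup1 may come from other Mup copies.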

How the results depend on the processing

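With all 6 females, where edgeR called 0 genes, DESeq2 called 303 with and 286 without independent filtering, voom with sample quality weights 1058 (weight of 1091 0.181), and edgeR without a filter on low counts 484. Of these, 295, 280, 820 and 351 were among the 936 genes called without 1091. RLE scaling, limma-voom, robust shrinkage, the stricter filter and thinned libraries also gave 0. Leaving out each mouse gave 0 to 936, the latter without 1091. Without 1091, 7 alternatives of test, scaling, filter or depth gave 764 to 1394, and leaving out each of the other mice gave 300.0 to 983. The difference between the sexes gave 260.0 genes with DESeq2 against 25, and 0 to 522 on leaving out each mouse. Siah1b, called in no fit, changed sign, with log2 fold changes of -0.23 (voom) and -0.26 (voom with weights) over all 6 females, where leaving out a mouse gave -0.52 to 0.40, and -0.0899 (voom) without 1091, where leaving out a further mouse gave -0.31 to 0.55. Of the named genes called without 1091, no alternative reversed one, 939 values stayed past the threshold under other settings and 24 did not, and on leaving out a further mouse 442 did and 248 did not. The cause was not tested. No paired analysis was possible because the mouse numbers are not shared between groups. Depth, at most 3690283 counts, limits genes of a few CPM.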
